A study of Caenorhabditis elegans with 4 samples.

Results

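Chromosome II is one of the 5 autosomes of the nematode Caenorhabditis elegans. Its ZHP-3 peaks were taken as every row assigned to chromosome II in a list of ZHP-3 chromatin immunoprecipitation (ChIP-seq) peaks for the whole series, called the combined list here. That gave 1807 of the 11840 peaks on the 6 nuclear chromosomes, or 15.3%, on 15.2% of their summed length. The lists of the single ChIP libraries held 935 of 5981 peaks (replicate 1) and 1086 of 7001 peaks (replicate 2) on this chromosome. All positions are on WormBase WS220.

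All libraries came from 1 group of worms. They carried fem-2(b245)III, were labelled hermaphrodites at the stage of germline-containing young adults, and were kept at 20 °C. The growth notes describe gravid adults floated out of synchronized bulk cultures, so each extract pools many animals and all their tissues. The 2 ChIP libraries used an affinity-purified rabbit polyclonal antibody against ZHP-3. A pair of input libraries had the same replicate numbers and was not analysed here. There is no second strain, stage or antibody to compare with. Since nothing says that the replicates were separate cultures, their spread may be technical.

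ZHP-3 is a RING-finger protein needed for meiotic crossovers in C. elegans. It is known to lie along the synaptonemal complex, the structure that joins paired homologous chromosomes, and to become restricted to crossover sites late in meiotic prophase. Worm autosomes have a gene-rich centre with little crossing over and 2 arms where most crossovers fall. fem-2 acts in sex determination and is needed for sperm formation in hermaphrodites, and b245 is known as a temperature-sensitive allele.

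Chromosome II was divided at published limits of these recombination domains. The left arm ran to 4.879 Mb, the centre from there to 12.02 Mb, and the right arm on to the last listed peak base at 15279348 bp. They were 4.88, 7.14 and 3.26 Mb long. A peak was placed by its midpoint. With 2 replicate lists no exact permutation test between domains or chromosomes can pass a threshold, so the comparisons are descriptions. Most are given in all 3 lists.

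Over its whole length chromosome II had an ordinary number of peaks. The combined list held 118.3 peaks per Mb on chromosome II, against 118.0 peaks per Mb on the other 5 chromosomes as a whole, a ratio of 1.00. In replicate 1 the densities were 61.2 peaks per Mb on chromosome II and 59.4 on the others. In replicate 2 they were 71.1 on chromosome II and 69.6 on the others. The replicate mean on chromosome II was 66.1 ± 7.0 peaks per Mb (SD, n = 2). Replicate 2 listed more peaks on the other chromosomes too. Within each list the ratio of chromosome II to the others was 1.03 in replicate 1 and 1.02 in replicate 2. Chromosome II ranked 3 of 6 in each of the 3 lists, after III and I.

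Peak widths and spacing on chromosome II were also near those elsewhere. The median width in the combined list was 330 bp on chromosome II, with quartiles of 229 and 522 bp, and 324 bp on the other chromosomes. Replicate 1 gave medians of 469 bp on chromosome II and 451 bp on the others, and replicate 2 gave 453 and 440.0 bp. Peaks covered 5.66% of chromosome II in the combined list, against 5.49% of the others. They covered 3.60% of chromosome II in replicate 1 and 4.05% in replicate 2. Peaks of at least 1000 bp numbered 127 in the combined list (7.03%), 86 in replicate 1 (9.20%) and 88 in replicate 2 (8.10%). These shares lay within the range of the other chromosomes. That range was 5.98% (X) to 7.99% (V) in the combined list, 6.95% (I) to 10.98% (V) in replicate 1, and 6.55% (I) to 10.72% (V) in replicate 2.

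Peaks on chromosome II were unevenly spaced. From the end of one peak to the start of the next, the median distance was 3238 bp in the combined list, against a mean of 7981 bp. Of 1806 such distances, 516 were under 1000 bp (28.6%) and 219 were at least 20000 bp (12.1%). In replicate 1 the median was 7740 bp and the mean 15757 bp, and in replicate 2 the median was 6241 bp and the mean 13506 bp. Many close pairs thus stood beside long stretches without a peak in every list. This was not particular to chromosome II, as the mean exceeded the median on each other chromosome too. In the combined list 27.4% (X) to 33.1% (III) of their distances were under 1000 bp. The median distance on the other chromosomes was 3262 bp in the combined list, 8150 bp in replicate 1 and 6668.5 bp in replicate 2.

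The peaks were not spread evenly over the 3 domains, and the left arm was the sparse one. On the left arm, in the centre and on the right arm the combined list had 96.3, 125 and 136 peaks per Mb. Replicate 1 had 49.8, 66.2 and 67.2 peaks per Mb in the same order. Replicate 2 had 57.2, 79.4 and 73.6 peaks per Mb in that order. The left arm was lowest in each list, whereas the order of centre and right arm changed between the replicates. The replicate means were 53.5 ± 5.2 peaks per Mb on the left arm, 72.8 ± 9.3 in the centre and 70.4 ± 4.6 on the right arm (SD, n = 2 each). The left arm took 26.0% of the combined peaks of the chromosome on 31.9% of its length. A sparse left arm was not particular to chromosome II. It was also the sparsest domain on III and V in each list, and on X in replicate 1. Among the left arms of the 6 chromosomes, that of II ranked 4 by density in the combined list and in replicate 1. In replicate 2 it ranked 5.

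**Figure D1:**
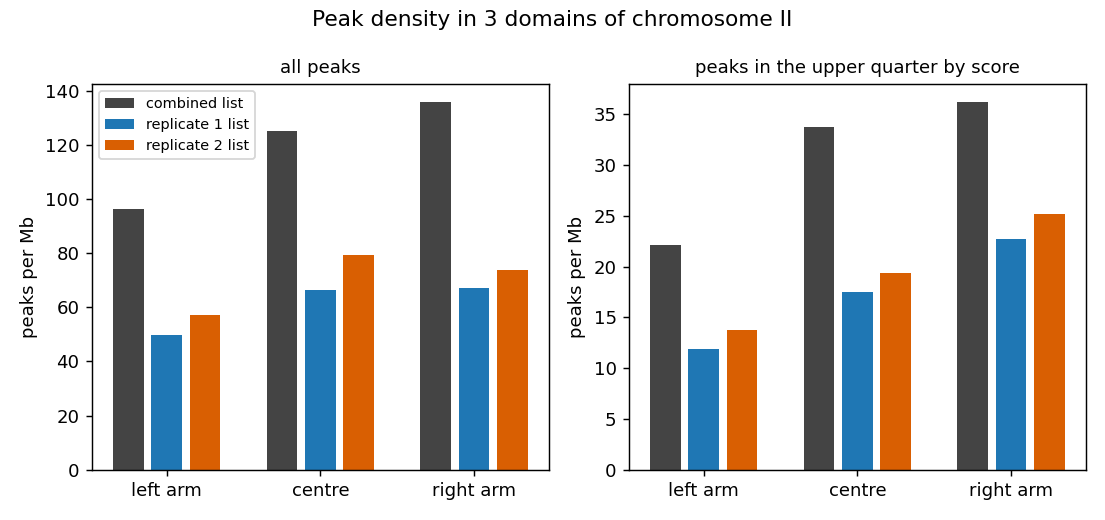
Peaks per Mb on the left arm, in the centre and on the right arm of chromosome II, for all peaks (left panel) and for peaks in the upper 25% of their list by score (right panel); each bar is 1 peak list. The left arm has the lowest bar in every list, and among high-scored peaks the right arm has the highest, with 22.7 per Mb in replicate 1 and 25.2 in replicate 2.

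The difference between the arms was wider among high-scored peaks. Each peak carries a score from the authors' peak caller, which is their value and was not recomputed. A peak counted as high-scored when it lay in the upper 25% of its own list over the nuclear genome, which meant a score of at least 32.5 in the combined list, 437 in replicate 1 and 568 in replicate 2. The left arm, centre and right arm held 11.9, 17.5 and 22.7 such peaks per Mb in replicate 1. They held 13.7, 19.3 and 25.2 in replicate 2, and 22.1, 33.7 and 36.2 in the combined list. High-scored peaks were 23.9 ± 0.1% of all left-arm peaks, 25.4 ± 1.5% of centre peaks and 34.0 ± 0.3% of right-arm peaks in the replicate lists (SD, n = 2 each). In the combined list these shares were 23.0% on the left arm, 27.0% in the centre and 26.6% on the right arm, so the right arm did not stand above the centre there. The replicate SD leaves out counting error, and the right-arm share rests on 74 of 219 peaks in replicate 1 and 82 of 240 in replicate 2. Among the other right arms the highest share was that of V, with 30.3% in replicate 1 and 30.0% in replicate 2.

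The highest scores of all showed another order. In the replicate lists many peaks are tied at a score of 3100, and few lie above it. On chromosome II, 18 peaks of replicate 1 reached 3100, with 8 on the left arm, 5 in the centre and 5 on the right arm. In replicate 2 there were 31, with 14, 9 and 8 in these domains. Per Mb that was 1.64, 0.70 and 1.53 in replicate 1, and 2.87, 1.26 and 2.45 in replicate 2. At this level the centre had the fewest peaks per Mb and the left arm did not, but the counts per domain were only 5 to 14. Of the 18 peaks in replicate 1, 17 overlapped a peak of replicate 2 that had also reached 3100. Peaks at exactly 3100 numbered 16 on chromosome II in replicate 1, against 6 (X) to 30 (IV) on the others. In replicate 2 they numbered 30, against 29 (I) to 46 (IV), so the number on chromosome II was not unusual. Neither the domains nor the overlap of such peaks were counted on the other chromosomes. The combined list could not be set beside them, as its highest score on chromosome II was 156.02.

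Setting one arm over the other, the log2 ratio of peak densities on the right arm over the left arm was 0.50 in the combined list, 0.43 in replicate 1 and 0.36 in replicate 2 (replicate mean 0.40 ± 0.05, SD, n = 2). For the other 5 chromosomes it lay between -0.20 and 0.37 in the combined list, between -0.20 and 0.36 in replicate 1, and between -0.19 and 0.37 in replicate 2. Chromosome II thus had the highest ratio of the 6 in the combined list and in replicate 1, and in replicate 2 it was next to chromosome III, with 0.36 and 0.37. For peaks of the upper 25% by score the ratio on chromosome II was 0.71 in the combined list, 0.93 in replicate 1 and 0.87 in replicate 2. The highest value on any other chromosome was 0.43 in the combined list (X), 0.43 in replicate 1 (V) and 0.49 in replicate 2 (V). The replicate mean on chromosome II was 0.90 ± 0.04 (SD, n = 2), a spread that leaves out counting error. The ratio rests on 58 left-arm and 74 right-arm peaks in replicate 1, and on 67 and 82 in replicate 2. The gap to the other chromosomes was not tested, with 6 chromosomes and 2 lists. With every chromosome cut into 3 equal parts instead, a division chosen after seeing the data, chromosome II had the highest ratio of the outer parts in all 3 lists, with 0.71, 0.95 and 0.82, against at most 0.39 on another chromosome.

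**Figure D2:**
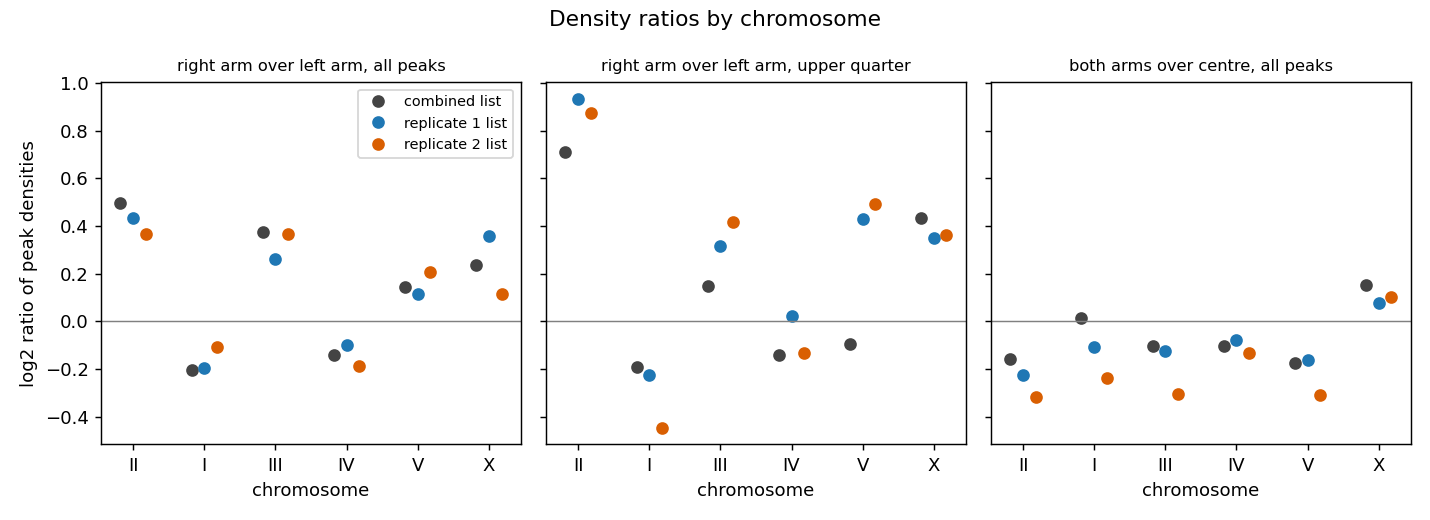
Log2 ratios of peak densities for chromosome II and the other 5 chromosomes: right arm over left arm for all peaks and for the upper 25% by score, and both arms together over the centre; each point is 1 list. Chromosome II is highest in the middle panel in all 3 lists, at 0.71 to 0.93, and lies below 0 in the right panel, at -0.16 to -0.32.

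Both arms together were less dense than the centre. The arms held 112 combined peaks per Mb, against 125 in the centre. In replicate 1 the arms held 56.8 per Mb, against 66.2 in the centre, and in replicate 2 the arms held 63.8, against 79.4 in the centre. The log2 ratio of arms over centre was -0.16, -0.22 and -0.32 in these lists (replicate mean -0.27 ± 0.07, SD, n = 2). The left arm alone had a log2 ratio to the centre of -0.38 in the combined list and -0.44 ± 0.04 in the replicates (SD, n = 2). The right arm gave 0.12 in the combined list and -0.04 ± 0.09 in the replicates, which is within the spread between replicates. For both arms together over the centre, the replicate 1 ratio on chromosome II was the lowest of the 6 chromosomes. In replicate 2 it was level with V at -0.31 and III at -0.30, and in the combined list V was lower, at -0.18. Among peaks of the upper 25% by score the ratio on chromosome II was -0.28 in the combined list, -0.11 in replicate 1 and -0.08 in replicate 2, and it was the lowest of the 6 in none of these lists.

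The median width was lowest on the left arm. It was 433 bp in replicate 1 and 430.0 bp in replicate 2. The centre had 478 bp in replicate 1 and 466 bp in replicate 2, and the right arm had 474 and 463 bp. In the combined list the medians were 297 bp on the left arm, 341 bp in the centre and 338 bp on the right arm. The left arm also had the lowest median on 3 of the other 5 chromosomes in replicate 1 and on 1 of 5 in replicate 2 and in the combined list. Peaks of at least 1000 bp did not follow the medians in the replicate lists, where they were 8.65 ± 0.57% of left-arm peaks, 8.11 ± 0.49% of centre peaks and 9.9 ± 1.6% of right-arm peaks (SD, n = 2 each). Peaks covered 2.95 ± 0.19% of the left arm, 4.22 ± 0.48% of the centre and 4.24 ± 0.17% of the right arm in the replicate lists (SD, n = 2 each). Across the 1807 combined peaks of the chromosome, width and score went together, with a Spearman's rho of 0.70, and it was 0.81 in replicate 1 and 0.88 in replicate 2. These are correlations across peaks of 1 list, and on the other chromosomes they were 0.68, 0.83 and 0.88.

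Counts in 30 windows of 500 kb gave a finer view of the chromosome. The window from 2.0 to 2.5 Mb, on the left arm, was the emptiest of chromosome II in all 3 lists, with 37 combined peaks, 15 of replicate 1 and 18 of replicate 2. The fullest window differed between lists. In the combined list it lay from 14.0 to 14.5 Mb, on the right arm, with 91 peaks. In replicate 1 it lay from 5.0 to 5.5 Mb, just inside the centre, with 51 peaks, where replicate 2 also had 51. In replicate 2 it lay from 9.5 to 10.0 Mb, with 65 peaks, where replicate 1 had 42. Among the 9 windows wholly on the left arm the combined count ran from 37 to 66 with a median of 46, among the 14 in the centre from 49 to 77 with a median of 62.5, and among the 5 on the right arm from 42 to 91 with a median of 75. The domains therefore overlapped window by window.

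**Figure D3:**
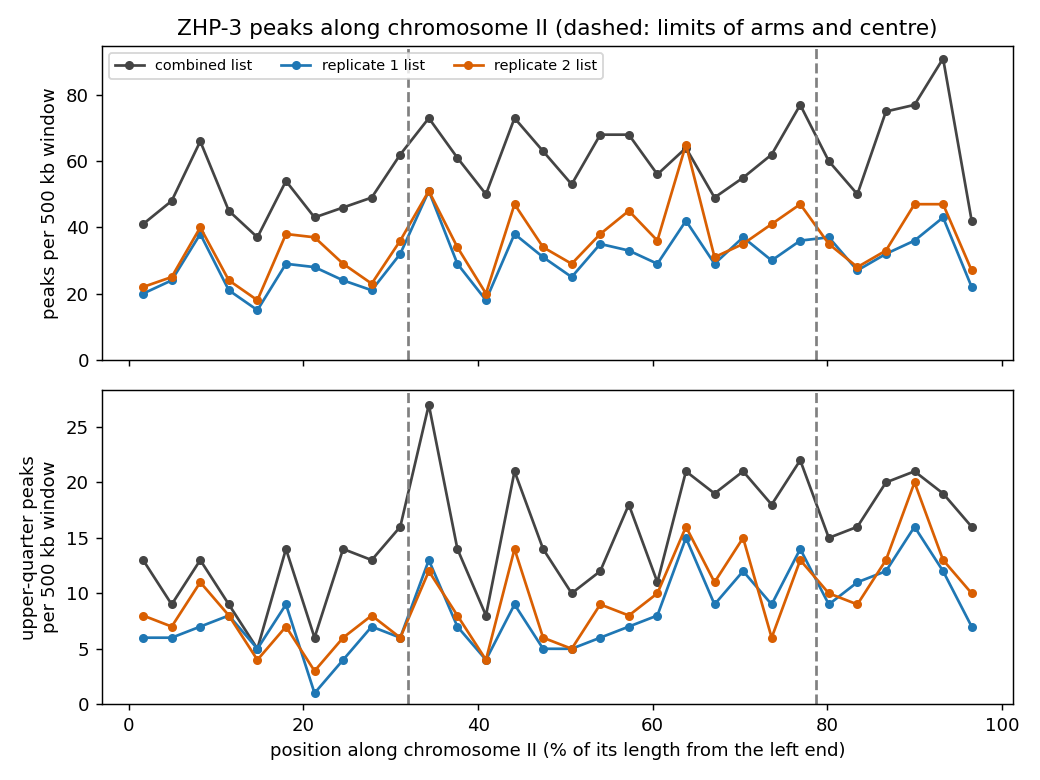
Peaks per 500 kb window along chromosome II, for all peaks (upper panel) and peaks of the upper 25% by score (lower panel), against position as percent of the chromosome's length; lines are the 3 lists and dashed lines the limits between arms and centre. The replicate lists rise and fall together, with 15 and 18 peaks in the emptiest window and 51 each in the window just inside the centre; they part most from 9.5 to 10.0 Mb, with 42 in replicate 1 and 65 in replicate 2.

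Window counts of the replicate lists on chromosome II had a Spearman's rho of 0.89 over these windows, which share the same genome positions and neighbour each other. The standard deviation of the counts over windows was 22.1% of the mean in the combined list on chromosome II and 29.2% over 167 windows of the other chromosomes. In replicate 1 these were 26.6% on chromosome II and 30.0% on the others, and in replicate 2 they were 29.5% and 31.4%.

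The right end of the chromosome was fuller than the left end over 500 kb, while over 50 kb the counts were small and close. In the outermost 500 kb the combined list had 72 peaks at the right end and 41 at the left end. Replicate 1 had 35 peaks at the right end and 20 at the left end, and replicate 2 had 39 and 22. In the outermost 50 kb the right and left ends held 10 and 8 combined peaks, 5 and 4 peaks of replicate 1, and 4 and 4 of replicate 2. The first peak started at base 1 in each list. It ended at 254 in the combined list, with a score of 28.4. It ended at 458 in replicate 1 and 451 in replicate 2, with scores of 53.0 and 618, which are percentile 1.5 of the replicate 1 list and percentile 76.9 of the replicate 2 list. The last peak of the combined list ran from 15279039 to 15279348 with a score of 8.58 and overlapped no replicate peak. The last peak of replicate 1 lay at chrII:15266232-15266769 and that of replicate 2 at chrII:15271484-15271752, and neither overlapped a peak of the other replicate.

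In the combined list nearly all of the strongest peaks of chromosome II were matched in both replicate lists, and few of the weakest were. Because the combined list is not independent of the replicate lists, such a match is no separate support for a peak. Of the 1807 combined peaks, 762 overlapped a peak in both replicate lists by at least 1 bp, which is 42.2% (Wilson 95% interval 39.9 to 44.5), against 42.4% over all nuclear chromosomes. Another 245 were matched in replicate 2 but not in replicate 1, and 118 in replicate 1 but not in replicate 2. The remaining 682, or 37.7% (35.5 to 40.0), overlapped neither, against 37.2% over all nuclear chromosomes. Both shares were at the background. These intervals treat peaks as independent and cover counting error only. The median score was 41.0 for peaks matched in both replicates and 5.31 for peaks matched in neither, and their median widths were 513 and 214 bp. On the other chromosomes the median scores were 37.6 for both and 5.19 for neither, so this was not particular to chromosome II.

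When the combined peaks of the chromosome were ranked and cut into 4 nearly equal parts by score, 450 of the highest 452 lay in both replicate lists. In the part below it 273 of 451 did, then 34 of 452, and 5 of 452 in the lowest. Among replicate 1 peaks cut in the same way, 65.4% of the lowest part and 99.1% of the highest overlapped a replicate 2 peak. Among replicate 2 peaks, 42.6% of the lowest part and 97.4% of the highest overlapped a replicate 1 peak. This division by score was made on chromosome II alone, so no share over all chromosomes stands beside it.

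**Figure D4:**
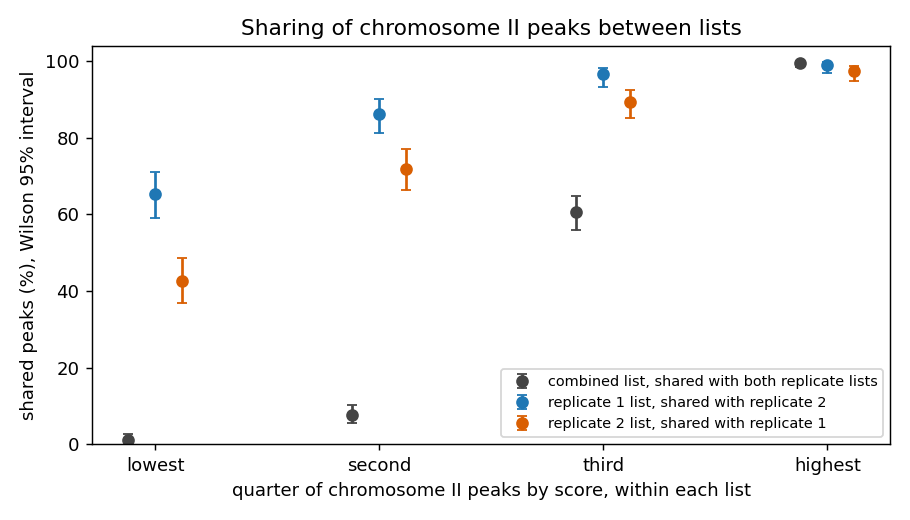
Percent of chromosome II peaks found in the other lists, in 4 nearly equal parts of each list ordered by score; points are shares and bars their Wilson 95% intervals. The combined list goes from 1.11% in the lowest part to 99.6% in the highest.

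Peaks found in both replicate lists were sparse on the left arm too. Their density was 38.1 per Mb on the left arm, 55.2 in the centre and 55.8 on the right arm. Right arm over left arm, that is a ratio of 1.46, and on the other chromosomes it ran from 0.94 (IV) to 1.26 (X). Combined peaks found in neither replicate had 40.4, 43.8 and 52.8 per Mb on the left arm, in the centre and on the right arm, a ratio of right over left of 1.31. For these weak peaks 2 other chromosomes had a higher ratio, III with 1.37 and X with 1.38.

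Between the replicates, 812 of 935 replicate 1 peaks on chromosome II overlapped a replicate 2 peak, which is 86.8% (Wilson 95% interval 84.5 to 88.9), against 87.3% over all nuclear chromosomes. In the other direction 818 of 1086 did, or 75.3% (72.7 to 77.8), against 74.7%. By domain the replicate 1 share was 86.0% on the left arm, 89.2% in the centre and 82.6% on the right arm. The interval was 86.1 to 91.7 in the centre and 77.1 to 87.1 on the right arm. In the other direction the domains lay between 74.3% and 77.1%. The 123 replicate 1 peaks without a partner had a median score of 81.8, against 246 for those with one, and the 268 of replicate 2 had 102, against 345.

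Where peaks matched one to one, which gave 745 pairs on chromosome II, positions and scores went together. The midpoints of a pair lay a median of 27 bp apart. Spearman's rho of the scores was 0.79 and Pearson's r of their log10 values 0.80. By domain, rho was 0.75 on the left arm, 0.78 in the centre and 0.82 on the right arm. These are across peaks, which share 2 libraries. Replicate 2 gave the higher score in 554 pairs (74.4%), with a median ratio of replicate 2 over replicate 1 of 1.38 and quartiles of 1.00 and 1.96. The median ratio was 1.33 on the left arm, 1.42 in the centre and 1.33 on the right arm, and 1.39 on the other chromosomes.

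**Figure D5:**
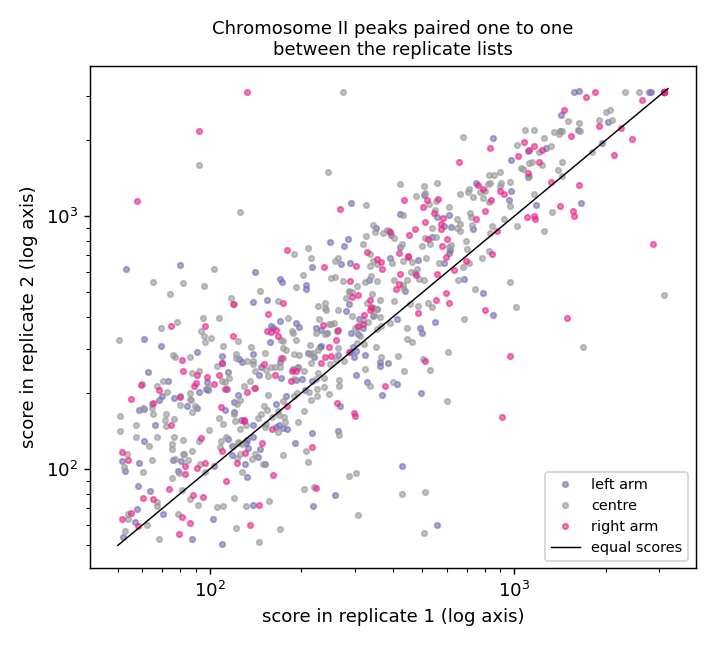
Score in replicate 2 against score in replicate 1 for the 745 one-to-one pairs of chromosome II, on log axes, coloured by domain; the line marks equal scores. In 554 pairs the point lies above the line, and the 3 domains overlap throughout.

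The 10 highest combined peaks of chromosome II that overlap both replicate lists came from all 3 domains, with 3 on the left arm, 4 in the centre and 3 on the right arm. The highest lay on the right arm at chrII:14561349-14562054 with a combined score of 156.02, which ranked 21 in the combined list. Its replicate scores were 1899 in replicate 1 and 2275 in replicate 2, ranks 36 and 46 on the chromosome. The next was the highest of the left arm, at chrII:4047761-4048323, with a combined score of 155.15 and scores of 1623 in replicate 1 and 2201 in replicate 2. The highest of the centre lay at chrII:8569248-8569793, with a combined score of 146.03 and scores of 1204 in replicate 1 and 1792 in replicate 2. All 3 were narrow, with combined widths of 706, 563 and 546 bp.

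Of the other 7, those at chrII:15137668-15143058 and chrII:9201791-9203562 had a score of 3100 in both replicates, with combined scores of 149.21 and 141.46. A peak at chrII:12738094-12739625 scored 144.48 in the combined list, and it was one of the 2 among the 10 that scored higher in replicate 1, with 2443, than in replicate 2, with 2021. The other was at chrII:11782453-11782995, with 140.93 in the combined list, 1254 in replicate 1 and 879 in replicate 2. The last 3 lay at chrII:3682701-3683329, chrII:2564795-2565473 and chrII:9053466-9055007, with combined scores of 146.26, 143.59 and 142.06. The order by combined score therefore differed from the order within the replicate lists.

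The widest combined peaks found in both replicates were of unlike kinds. The widest, 8855 bp on the left arm at chrII:3159607-3168461, had a combined score of only 19.55 and ranked 703 on the chromosome. The same stretch was cut into 11 peaks in replicate 1 and 11 in replicate 2, with top scores of 482 and 674. It was therefore 1 broad, low region in the combined list and a string of separate peaks in both replicates. The next, 5600 bp in the centre at chrII:10445063-10450662, had a combined score of 49.63, was cut into 2 peaks in replicate 1 and 3 in replicate 2, and reached 3100 in both. The last of these, 5391 bp wide, is the peak at chrII:15137668-15143058 given above, a single peak of 4900 bp in replicate 1 and of 4906 bp in replicate 2.

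Chromosome II held 5 of the 22 runs of at least 10 combined peaks with gaps of at most 1500 bp. These held 56 peaks, or 3.10% of the combined peaks of the chromosome, against 1.27% (X) to 2.99% (III) on the others. No run lay on the left arm, and this was also so on III, IV and V. The one with the most peaks, 13 over 9.46 kb in the centre from 8476331 to 8485793, was weak, with a median combined score of 4.82 and 10 of its 13 peaks in neither replicate. The run from 14324371 to 14331539 on the right arm held 11 peaks and was likewise weak, with a top combined score of 7.61 and 7 peaks in neither replicate.

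In 2 runs of the centre the replicates differed in how many peaks they listed. In the run from 9807566 to 9824613, with 12 combined peaks, replicate 1 listed 7 peaks and replicate 2 listed 20, with top scores of 162 in replicate 1 and 238 in replicate 2. It lies in the window where replicate 2 had its highest count. In the run from 5328556 to 5341344, with 10 combined peaks, replicate 1 listed 11 and replicate 2 listed 5, with top scores of 2004 and 2590. The replicate 1 peaks summed to 9.36 kb there and the replicate 2 peaks to 2.96 kb.

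The remaining run, on the right arm from 13817691 to 13829937, was strong, and most of its high-scored peaks stood at like distances. Of its 10 combined peaks 7 overlapped both replicate lists, and those scored between 101.41 and 132.44. Replicate 1 listed 7 peaks there, with scores of 1103, 1028, 1162, 1117, 1236, 1168 and 898 from left to right. Replicate 2 listed 8, with scores of 992, 1733, 1004, 1826, 1822, 980, 86.3 and 1261. Apart from the weak peak of replicate 2, each replicate thus had 7 peaks with scores of 898 or more. From midpoint to midpoint, the first 5 steps between them were 1583 to 1893 bp in replicate 1 and 1634 to 1880 bp in replicate 2. The last step was longer in both, 2662 bp in replicate 1 and 2420 bp in replicate 2. Between the 7 high-scored combined peaks the steps ran from 1483 to 2360 bp, the last again the longest.

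The longest stretches of chromosome II without a combined peak were 89.4 kb on the right arm from 14879673 to 14969053, 79.1 kb on the left arm from 3817812 to 3896959, and 77.6 kb in the centre from 7397693 to 7475280. Peaks of the other lists were counted when they overlapped a stretch, also where they only reached over its edge. The first was overlapped by 1 peak of replicate 2, the next by 1 peak of each replicate, and the last was empty in all 3 lists. The longest stretch without a replicate 1 peak, 162 kb from 2059617 to 2221536, lay in the emptiest window. It was overlapped by 3 peaks of replicate 2 and 10 combined peaks. The longest without a replicate 2 peak, 135 kb from 713782 to 848477, was also on the left arm. It was overlapped by no replicate 1 peak and by 6 combined peaks.

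Some replicate peaks of high score had no partner. The highest of replicate 1 lay on the left arm at chrII:4762665-4764527, 1863 bp wide, with a score of 1030, and overlapped 2 combined peaks that scored at most 17.4. The highest of replicate 2 lay in the centre at chrII:5144524-5146808, 2285 bp wide, with a score of 1896, and overlapped 1 combined peak that scored 24.9. Of the combined peaks found in neither replicate, the highest scored 20.65 and lay in the centre at chrII:6535967-6536207. Nearly all replicate peaks of chromosome II were in the combined list, 99.6% of replicate 1 and 98.6% of replicate 2. On the other chromosomes these shares were alike, 99.6% and 98.7%. On chromosome II the combined list lacked 4 of 935 peaks from replicate 1 and 15 of 1086 from replicate 2. Of those, the highest lay on the left arm, at chrII:3290568-3290886, with a score of 367 in replicate 2.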

How the data were processed

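Peak lists of 2 ZHP-3 ChIP-seq libraries and a combined list of the series were used as deposited. Per the submitters' processing notes, BWA and the ce10 build were used. Positions follow WormBase WS220 per the file headers. MACS is named inside the replicate lists and MACS v2 inside the combined list. How thresholds, controls or pooling were set is not stated in these sources. Each peak's score is the authors' deposited value, on a scale the files do not name. Scores of the combined and replicate lists were compared only by rank. The other deposited values are start and end positions in bp. The lists hold no read counts, so depth is unknown. No genome or annotation of WS220 was used here, so no gene or sequence is given.

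Peaks overlapped when they shared at least 1 bp; counts between replicates equalled those of bedtools 2.31.1. Chromosome length was the last peak end over the lists. The domain limits of the other chromosomes are those of the published map as known, to the kb; the map itself was not used here, so ratios by domain on those chromosomes rest on limits not checked against it. The 3 mitochondrial peaks were left out. Shares have Wilson 95% intervals. The steps were checked on simulated peaks and run in Python 3.11.15, numpy 2.4.6, pandas 2.3.3, scipy 1.17.1 and matplotlib 3.10.9.

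Named peaks were the 10 highest combined peaks in both replicates, the highest of each domain, the 3 widest, the 5 longest runs by peak number, the 3 longest empty stretches, first and last peaks, the highest without a partner in each list, and the fullest and emptiest windows. The replicate peak absent from the combined list was added after its value was seen, as were the single peaks of the strong run and the counts of peaks at a score of 3100. The chromosome, domain limits, runs and measures were chosen with earlier results of these data known.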

Additional observations from a re-analysis of the deposited data

How the results depend on the processing

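Of 32 values under other settings, other than leaving out a replicate, 2 equal the main value by construction, 9 stayed within the spread between replicates (for shares, within the counting interval; for counts, within 1.5 times; for rho, within its SD over the 3 domains), 20 moved further and 1 turned its direction. The right arm over left arm log2 ratio, 0.50, was 0.41 with 3 equal parts, 0.43 in the upper 50% by score, 0.71 in the upper 25%, 0.58 by covered bases and 0.35 with peaks under 500 bp apart merged. The arms over centre log2 ratio, -0.16, was -0.26 in the upper 50%, -0.28 in the upper 25%, -0.26 by covered bases and -0.080 after merging. The one that turned was the ratio of chromosome II to the others, 1.00, which was 0.99 in the upper 50% and 1.04 in the upper 25%. By construction, density fell to 58.6 per Mb in the upper 50%, 30.6 in the upper 25% and 95.9 after merging. Median width was 466 and 594 bp in the upper 50% and 25%, and spacing 5170 bp after merging. The share of combined peaks in both replicates was 37.5% with a reciprocal overlap of 50% and 80.6% in the upper 50% of the combined list. The share of replicate 1 peaks in replicate 2 was 80.7% with the reciprocal rule. Asking for 15 or more peaks with gaps up to 3000 bp left 1 run. Apart from changes by construction, the cause was not tested. With 2 replicates, leaving out one gives the value of the other and no sign of stability; the ranges were 61.2 to 71.1 peaks per Mb, 1.02 to 1.03 for the ratio to the others, 3.60% to 4.05% covered, -0.32 to -0.22 for arms over centre (-0.11 to -0.08 in the upper 25%), 0.36 to 0.43 for right over left (0.87 to 0.93 in the upper 25%, where 3 equal parts, chosen after seeing the data, gave a mean of 0.89), 453 to 469 bp in width and 6241 to 7740 bp in spacing. No paired analysis was possible because replicate numbers are shared only with input libraries, whose data were not used here. Positions in genes were not run. Depth is unknown, so a site absent from a list may have missed the caller's threshold.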
